A study of Mus musculus with 18 samples.

Results

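The fibroblast growth factor (FGF) genes described here are 4 ligands, Fgf1, Fgf2, Fgf7 and Fgf10, and the 4 receptors Fgfr1, Fgfr2, Fgfr3 and Fgfr4. They were chosen by name, as every probe set annotated to 1 of these genes alone, which gave 20 probe sets for 8 of the 18193 genes on the array. The series holds 18 Affymetrix arrays with 1 colour, 17 of RNA from sorted mouse cells and 1 of a commercial reference RNA. Cells of 3 mouse mammary tumors, numbered 1, 2 and 7, had been sorted by staining for CD29 (the integrin beta1 chain) and CD24. High (H) and low (L) staining gave 4 populations, CD29H CD24H, CD29H CD24L, CD29L CD24H and CD29L CD24L, with 1 array per tumor (n = 3 each). Cells labelled as normal mammary epithelium gave 2 arrays of CD29H CD24P cells (P, positive), 2 of CD29P CD24H cells and 1 of CD24L cells. Tumors 1 and 2 are labelled as transplant generation 1 and tumor 7 carries no generation. The labels name no strain, genotype, age or treatment for any group. A transplanted tumor also holds cells of its host. The tumor populations were set side by side in search of genes that mark tumor-initiating cells.

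FGF ligands bind receptor tyrosine kinases on the cell surface together with heparan sulfate chains, and the receptors signal through the adaptor FRS2 to the RAS-MAPK pathway, phospholipase C gamma and AKT. Fgf7 and Fgf10 are typically made by mesenchymal cells and act on the epithelial splice form of Fgfr2. The receptor Fgfr2 is needed for the embryonic mammary bud and for growth of the ductal tree. Fgf1 binds all of the receptors, and Fgf2 is a broadly acting ligand held in the matrix. The annotation used here assigns the probe sets to genes, not to splice forms of the receptors.

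Promoter windows are shown for Fgf7, the tested member with the highest share of variation between sorted populations, for Fgfr2, the one with the highest share between tumors, and for Fgfr3, whose signal followed that of Fgfr2. Each is the 250 bases before the start site in the RefSeq promoter table (GRCm38.p6), 5′ to 3′ on the strand of the gene, with matches to searched motifs in capitals. The windows are chr2:126034408-126034657 on the plus strand for Fgf7, chr7:130266809-130267058 on the minus strand for Fgfr2, and chr5:33722056-33722305 on the plus strand for Fgfr3.
Fgf7: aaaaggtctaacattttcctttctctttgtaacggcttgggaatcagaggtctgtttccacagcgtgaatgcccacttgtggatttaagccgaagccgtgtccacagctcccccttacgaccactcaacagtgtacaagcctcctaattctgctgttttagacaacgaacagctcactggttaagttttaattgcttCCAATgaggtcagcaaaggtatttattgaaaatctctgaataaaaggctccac
Fgfr2: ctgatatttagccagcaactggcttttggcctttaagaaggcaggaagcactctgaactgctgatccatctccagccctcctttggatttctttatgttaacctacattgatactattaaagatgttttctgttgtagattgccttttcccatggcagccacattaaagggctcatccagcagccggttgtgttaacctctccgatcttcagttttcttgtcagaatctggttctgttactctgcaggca
Fgfr3: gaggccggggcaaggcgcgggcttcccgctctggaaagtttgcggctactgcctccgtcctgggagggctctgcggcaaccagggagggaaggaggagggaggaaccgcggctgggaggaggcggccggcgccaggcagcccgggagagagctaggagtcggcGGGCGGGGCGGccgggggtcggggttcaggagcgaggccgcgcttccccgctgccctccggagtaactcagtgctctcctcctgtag
Both strands were searched for 7 motifs, namely CCAAT (the CCAAT box) and GGGCGG (a GC box), described next, TATAAA (the TATA box, in 12.4% of windows), TGANTCA (the AP-1 site, in 6.75%), CACGTG (an E-box, in 6.02%), CCGGAA (an ETS core, in 12%) and CAGCTG (another E-box, in 13%). The Fgf7 window held 1 CCAAT, 53 bases before the start, a motif found in 33.9% of 32841 windows of the same length. The Fgfr2 window held none of the 7. The Fgfr3 window held 2 overlapping GGGCGG matches, at 87 and 82 bases before the start, and this motif occurs in 32.7% of windows. In base composition the Fgf7 and Fgfr2 windows lay at 43.6% and 44% G and C, below the median window (52.4%), whereas the Fgfr3 window shown lay at 72.8%. The windows of Fgf2, Fgf10 and Fgfr4 lay between 61.2% and 64%. Fgfr3 has another listed window upstream, at 66.8% G and C, with 3 GGGCGG, 1 CCAAT and 1 CAGCTG match; the downstream one, with the higher G and C content, was chosen for display after both were seen. Of the 8 genes 6 matched the table.

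All values below are the deposited signal in linear units, and all differences are on the log2(signal + 32) scale, which understates changes of dim probe sets. Each gene is represented by its brightest probe set. Differences carry standard errors from limma, and a call means an adjusted p under 0.05 (Benjamini-Hochberg over the genes tested). Genes in the lowest 40% by mean were left untested. Fgf2 and Fgf10 fell below this limit, with no sorted array above 63.3 and 49.6 signal units, so 6 of the 8 genes were tested. Fgf2 had 4.821 to 63.34 units on tumor arrays and 0.7697 to 40.46 on the 4 arrays of normal CD29H CD24P and CD29P CD24H cells. Fgf10 had 5.925 to 49.61 units on tumor arrays and 1.169 to 9.153 on those normal arrays, with 9 of 12 tumor arrays above all 4. At such levels signal and background are not separated here. Median signal was 71.6 to 104.2 units per array, and the number of arrays limits the precision. The labels do not state that the samples came from separate animals, so p-values measure only the spread between these samples.

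One array went against its label. On the normal CD24L array the 16 measured fibroblast genes summed to 426300 signal units, against 10430 to 47810 on the 4 other normal arrays, while the 12 luminal epithelial genes summed to 7540, against 30280 to 168300. No listed marker gene was at 0 on any array. The CD24L array is therefore given as a single value and is called CD24L throughout. In bulk populations, fewer cells that express a gene and less RNA per cell cannot be told apart.

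**Figure D1:**
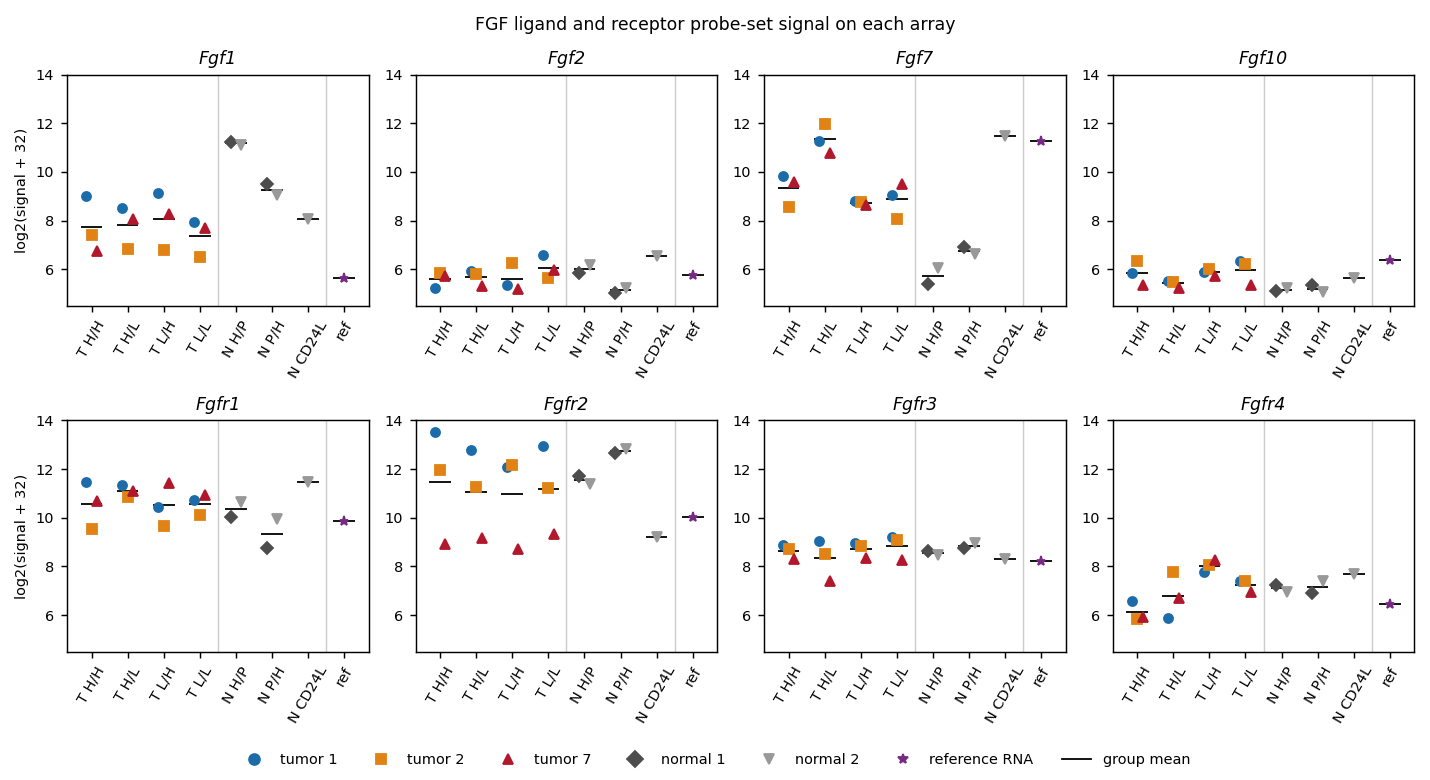
Signal of the 8 genes on each array as log2(signal + 32), by sorted group (T, tumor, and N, normal, with CD29 before CD24 staining; ref, reference RNA). Symbols mark the tumor or the normal preparation and bars the group mean; Fgf7 is highest in the T H/L group, on the N CD24L array and in reference RNA, and Fgfr2 is low on all 4 arrays of tumor 7.

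Fgf7, a growth factor for epithelial cells also called keratinocyte growth factor, was the only one of the 6 tested genes that differed among the 4 tumor populations. Its signal was 2412, 3986 and 1733 units in the CD29H CD24L cells of tumors 1, 2 and 7. CD29H CD24H cells had 870, 349 and 733 units in the same tumors. CD29L CD24H cells had 414, 401 and 367 units, and CD29L CD24L cells 500, 237 and 699 units. Each CD29H CD24L array was thus above every other tumor array. The share of all genes for which this holds was not counted.

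The F test over the 4 populations gave an adjusted p of 0.0311 for Fgf7 with limma, and 166 of 10916 genes passed it (1.52%, or 590 genes and 5.4% with the tumor as a block). The population took 83% of the sum of squares of Fgf7 among the 12 tumor arrays and the tumor 2.04%, where the medians over all tested genes were 23.3% and 38.5%. The call was lost when the CD29L CD24H or CD29L CD24L array of tumor 1, any 1 of the CD29H CD24L arrays or any whole tumor was left out (adjusted p up to 0.568). Without the CD29H CD24L array of tumor 2, 0 of all genes passed.

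Within CD29 high tumor cells, Fgf7 was lower in CD29H CD24H than in CD29H CD24L cells. Means were 9.32 ± 0.66 and 11.34 ± 0.60 (SD, n = 3 each), a difference of −2.01 ± 0.46 (adjusted p = 0.0409 with limma). It was lower in each tumor, with differences of −1.44, −3.40 and −1.21 in tumors 1, 2 and 7. This made 1 of 6 tested members lower and 0 higher, in a comparison in which 237 of 10916 genes were called (2.17%; 538, or 4.93%, with the tumor as a block), all of them lower in CD29H CD24H cells. Leaving out an array or a whole tumor ended the call in 13 of 15 refits, all but the refits that left out a CD29L CD24L array, from tumor 2 or from tumor 7 (differences −2.42 to −1.32, adjusted p up to 0.393). Such losses were not particular to Fgf7: without the whole of tumor 2, 0 of all genes passed.

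The second Fgf7 probe set, 1422243_at, was dim. It had 65.3, 19.2 and 117 units in CD29H CD24H cells and 102, 184 and 143 units in CD29H CD24L cells, a difference of −0.92 ± 0.44 that did not pass (adjusted p = 0.685 with limma when each probe set was tested by itself).

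Between the CD29 gates of CD24 low tumor cells, Fgf7 was higher in CD29H CD24L than in CD29L CD24L cells, by 2.46 ± 0.46 (adjusted p = 0.0261 with limma), and by 2.20, 3.90 and 1.27 in tumors 1, 2 and 7. It was the 1 of 6 tested members to pass, where 124 of 10916 genes did (1.14%), 119 higher (1.09%) and 5 lower (0.0458%). With the tumor as a block 483 passed (4.42%). The call was lost without any 1 of the CD29H CD24L arrays, without a CD29L CD24L array from tumor 1 or from tumor 2, and without any whole tumor (adjusted p up to 0.439). When the CD29H CD24L array of tumor 1 was left out, 0 of all genes passed. The second probe set differed by 0.35 ± 0.44 (adjusted p = 0.928).

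Genes of fibroblasts moved with Fgf7. The 16 measured fibroblast genes summed to 285900 to 340900 units in CD29H CD24L cells, against 26030 to 62920 in CD29H CD24H, 19560 to 127800 in CD29L CD24H and 56740 to 99020 in CD29L CD24L cells. In CD29H CD24H against CD29H CD24L cells 13 of the 16 were lower (median −3.47, against 0.05 over all genes), among them Dcn, the matrix proteoglycan decorin, by −4.34 ± 0.79 (adjusted p = 0.0115 with limma) and Fap, a protease of activated fibroblasts, by −3.83 ± 0.55 (adjusted p = 0.00421). Over the 17 sorted arrays Fgf7 correlated with the mean of these genes at r = 0.83 (rho = 0.70), and over the 12 tumor arrays with tumor means removed at r = 0.84. The 17-array value was not particular to fibroblast genes. It was 0.82 (rho = 0.64) for the 6 adipocyte genes and 0.70 (rho = 0.44) for the endothelial genes. With tumor means removed the adipocyte genes gave r = 0.39. With tumor means removed, Fgf7 also followed the 9 endothelial genes (r = 0.87), went against the 12 luminal genes (r = −0.79) and gave r = 0.50 with the 12 basal genes. The endothelial genes summed to 2166 to 5066 units in CD29H CD24L cells and to 1089 to 2176 in the other 3 tumor populations. Of 4 tested endothelial genes 0 passed in CD29H CD24H against CD29H CD24L cells (median −1.45; 2 with the tumor as a block). Arrays of 1 tumor share their source, so these correlations are a description. The part of these cell types in the Fgf7 difference was not tested.

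**Figure D2:**
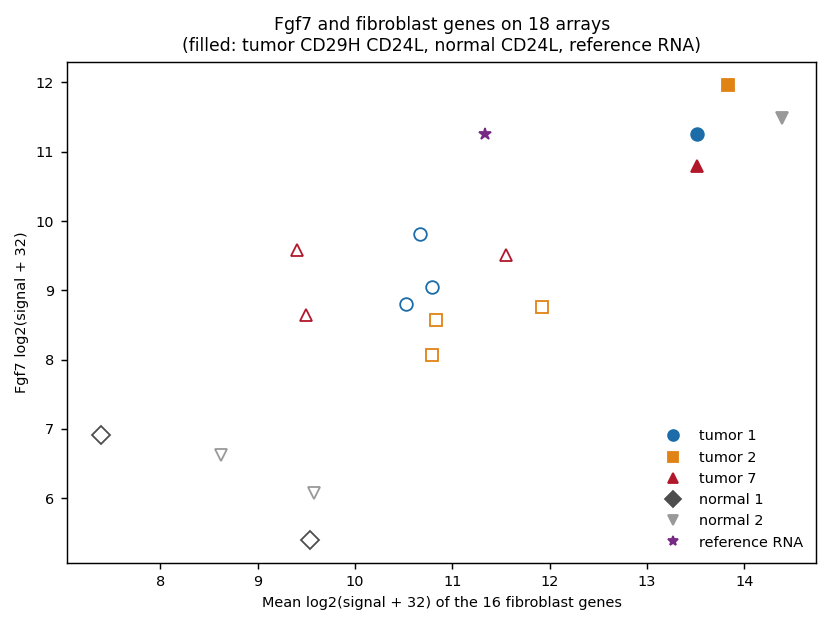
Fgf7 signal against the mean of 16 fibroblast genes, both as log2(signal + 32), with 1 point for each of the 18 arrays and symbols for the tumor or normal preparation. Filled symbols mark the tumor CD29H CD24L arrays, the normal CD24L array and reference RNA; the tumor CD29H CD24L and normal CD24L arrays lie at the upper right, and the 4 other normal arrays at the lower left.

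Among all tested genes, those whose pattern over the 17 arrays was most like that of Fgf7 were Fn1 (r = 0.946), which encodes the matrix protein fibronectin, Thbs2 (r = 0.939), a matricellular thrombospondin, and Cfb (r = 0.937), complement factor B.

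No other test between tumor populations called a member. Against the mean of the other 3 populations, 0 of 6 tested members and 0 of 10916 genes passed (0%; 759 genes at an unadjusted p under 0.05, and 85, 0.779%, with the tumor as a block). Against CD29L CD24H cells again 0 members and 0 genes passed (0%; 287 at an unadjusted p under 0.05, and 1 gene, 0.00916%, with the block). Against CD29L CD24L cells 0 members and 4 genes passed (0.0366%; 58, or 0.531%, with the block). CD29L CD24H against CD29L CD24L cells gave 0 members and 2 genes (0.0183%; 10, or 0.0916%, with the block). The test of whether the CD24 difference depends on the CD29 gate called 0 members and 0 genes (0%; 646 at an unadjusted p under 0.05, 211 or 1.93% with the block); Fgf7 gave −1.87 ± 0.65 in it (adjusted p = 0.526 with limma).

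Fgfr4, a receptor best known from liver, varied with the population more than with the tumor, which took 70.4% and 3.64% of its sum of squares. Its signal was 65, 25.3 and 28.2 units in CD29H CD24H cells of tumors 1, 2 and 7, and 26.3, 187 and 72.1 units in CD29H CD24L cells. It was 186, 235 and 277 units in CD29L CD24H cells and 139, 137 and 90.7 units in CD29L CD24L cells. The CD29H CD24H arrays lay below both CD29 low groups without overlap, but at signal not told from background here. How many of all genes separate these groups was not counted. The F test over the 4 populations did not pass (adjusted p = 0.255 with limma, 0.0713 with the tumor as a block). The difference from CD29L CD24H cells was −1.92 ± 0.46 and that from the mean of the other 3 populations −1.24 ± 0.38, and neither passed (adjusted p = 1 and 0.441 with limma, 0.372 and 0.105 with the tumor as a block). The probe set carries the suffix _x_at, which marks probes that may also match other sequences. The 4 other Fgfr4 probe sets were dimmer, with medians of 6.93 to 40.4 units. Adam15 (r = 0.815), Timm50 (0.805) and Washc1 (0.798) had patterns most like that of Fgfr4.

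For Fgf1 and the other 3 receptors the tumor took a larger share of the sum of squares than the sorted population did (54.5% to 93.9%, against 1.27% to 16%). Of the 6 tested members 4 differed among the 3 tumors, in a test that 4015 of 10916 genes passed (36.8%). Fgfr2, the receptor for Fgf7 and Fgf10, had 11918, 7118, 4326 and 7763 units in the CD29H CD24H, CD29H CD24L, CD29L CD24H and CD29L CD24L cells of tumor 1. Tumor 2 had 3963, 2409, 4503 and 2378 units in the same order, and tumor 7 had 451, 539, 388 and 621 units. All 4 arrays of tumor 7 lay below all 8 of the other tumors, which overlapped each other. The share of all genes that set 1 tumor apart from the others in this way was not counted.

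The tumor means of Fgfr2 were 12.84 ± 0.60 in tumor 1, 11.65 ± 0.47 in tumor 2 and 9.03 ± 0.28 in tumor 7 (SD over 4 arrays), and the F test gave an adjusted p of 1.98e-06 with limma. The tumor took 93.9% of its sum of squares and the population 1.27%. In the fit without a tumor block this spread enters the error, and the population differences of Fgfr2 had wide intervals. CD29H CD24H minus CD29H CD24L cells was 0.40 ± 1.33 (95% interval −2.48 to 3.29). With the tumor as a block the standard error was 0.36, and the difference did not pass either (adjusted p = 0.607 with limma). It was 0.74, 0.71 and −0.24 within tumors 1, 2 and 7. A second probe set, 1420847_a_at, differed among the tumors as well (adjusted p = 0.000764 with limma), with 26.2 to 94.6 units in tumor 7, against 173 to 298 in tumor 1 and 116 to 214 in tumor 2. The third and dimmest, 1443211_at, did not pass (adjusted p = 0.129).

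The keratins Krt8 and Krt14 separated the same tumors. Krt8, a keratin of luminal cells, had 36270 to 48250 units in tumor 7, against 10450 or less in tumors 1 and 2. Krt14, a keratin of basal cells, had 292.5 to 445.7 units in tumor 7, against 2845 or more in tumors 1 and 2. The marker lists separated the tumors less clearly. The 12 luminal genes summed to 65140 to 84600 units in tumor 7, against 40260 or less in the others. Their mean log2 signal overlapped, at 10.51 to 10.77 in tumor 7 and up to 10.67 in tumor 1. The 12 basal genes summed to 5283 to 40950 units in tumor 7, overlapping tumor 1 (38220 to 69520) and tumor 2 (31440 to 59870). Over the 12 tumor arrays Fgfr2 correlated with the mean of 12 basal genes at r = 0.96, and at r = 0.46 once tumor means were removed. The 4 arrays of a tumor share their source. Over the 17 sorted arrays r was 0.41, and in normal cells Fgfr2 was lower in the gate with the higher basal genes, as given below. The part of these keratin, luminal and basal genes in the Fgfr2 difference was not tested. The genes most like Fgfr2 over the 17 arrays were Lmo7 (r = 0.917), Zfp809 (r = 0.900) and Flywch2 (r = 0.877).

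**Figure D3:**
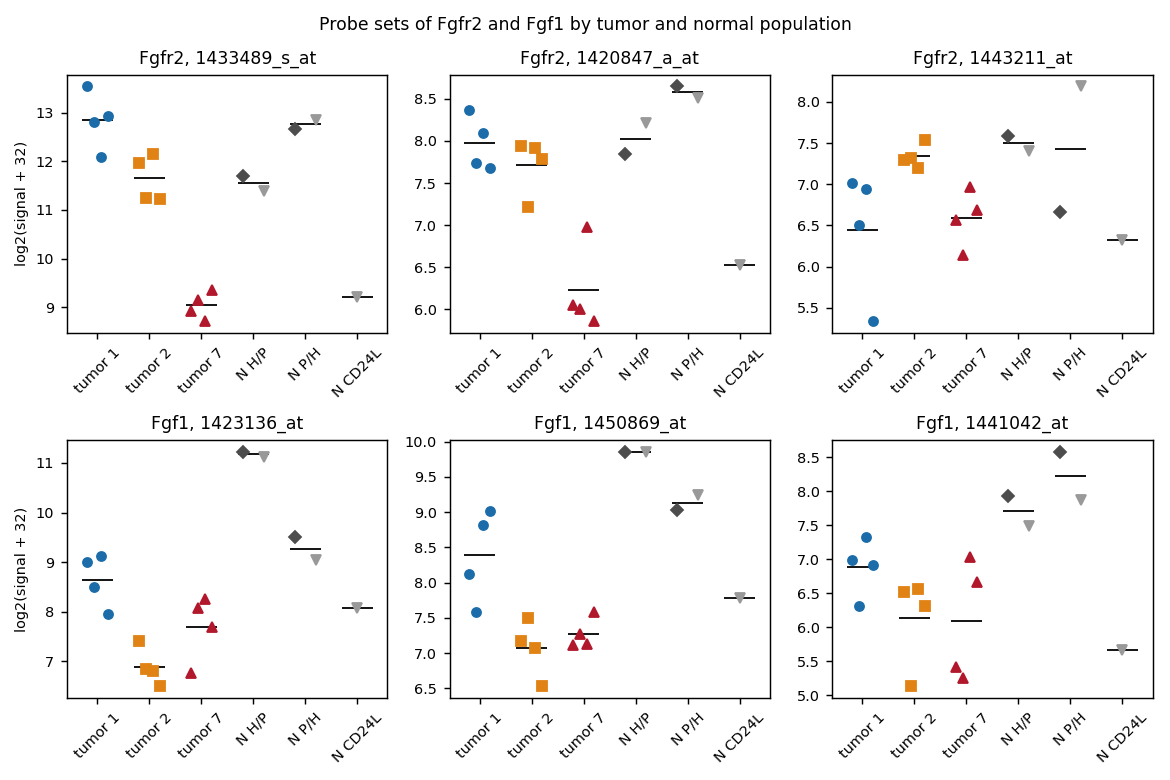
Each probe set of Fgfr2 (top) and Fgf1 (bottom) as log2(signal + 32) on the 4 arrays of each tumor and on the normal arrays (N, with CD29 before CD24 staining); bars mark means and each panel has its own axis. In 2 of the 3 Fgfr2 panels tumor 7 lies below tumors 1 and 2, and in all 3 Fgf1 panels the tumor means lie below the N H/P and N P/H means.

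Fgfr3, a receptor whose signalling restrains cartilage growth, followed Fgfr2 among the members (r = 0.79 over 17 arrays). It had 432 to 553 units on the arrays of tumor 1, 335 to 510 in tumor 2 and 140 to 293 in tumor 7, so that tumor 7 was again below the others (adjusted p = 0.021 with limma). The call was lost without the CD29H CD24L array of tumor 1 (adjusted p = 0.0571) or tumor 7 (0.0958) or the CD29L CD24L array of tumor 7 (0.0630). With the mean of the 2 Fgfr3 probe sets the call was lost too (adjusted p = 0.509 with limma). The other probe set, 1425796_a_at, was dim, with log2 means of 5.65, 6.01 and 5.9 in tumors 1, 2 and 7. Aldh5a1 (r = 0.839), Frmd4b (0.819) and Psapl1 (0.808) had the patterns closest to it over the 17 arrays.

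Fgfr1, a receptor of mesenchymal and many epithelial cells, showed another order. Its mean was lowest in tumor 2, with 709 to 1834 units, against 1363 to 2792 in tumor 1 and 1613 to 2749 in tumor 7 (adjusted p = 0.028 with limma), and the ranges overlapped. Without the CD29H CD24H or the CD29L CD24H array of tumor 2 it did not pass (adjusted p = 0.145 and 0.109), nor did it with the actin 3′/5′ ratio, a measure of RNA quality, as a covariate (0.141), and its 2 other probe sets did not pass by themselves (0.414 and 0.263). Its closest genes by pattern were Cblb (r = 0.857), Slc4a3 (0.852) and Ndrg4 (0.850).

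Fgf1 had its highest mean in tumor 1, where it had 480, 331, 526 and 215 units in CD29H CD24H, CD29H CD24L, CD29L CD24H and CD29L CD24L cells. It had 139, 83.1, 80.4 and 58.6 units in tumor 2 and 76.5, 237, 275 and 174 units in tumor 7 (adjusted p = 0.00467 with limma). Tumor 1 lay above tumor 2 without overlap, and tumor 7 overlapped both. How many of all genes separate these 2 tumors was not counted. Its second probe set, 1450869_at, passed as well (adjusted p = 0.0165). Slc66a2 (r = 0.890), Ebpl (0.865) and Ptov1 (0.863) had the patterns most like it. Fgf7 and Fgfr4 did not differ among the tumors by this test (adjusted p = 0.628 and 0.681).

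In normal epithelium the CD29H CD24P gate holds basal cells and the CD29P CD24H gate luminal cells by their markers: all 12 basal genes were higher in CD29H CD24P cells and 11 of 12 luminal genes lower. Fgf1 was higher and Fgfr2 lower in the CD29H CD24P cells. Fgf1 had 2375 and 2193 units in CD29H CD24P cells, against 690 and 495 in CD29P CD24H cells, a difference of 1.91 ± 0.27 (adjusted p = 0.000564 with limma). Fgfr2 had 3298 and 2653 units in CD29H CD24P cells, against 6483 and 7296 in CD29P CD24H cells (−1.21 ± 0.24, adjusted p = 0.00453). Neither gene's groups overlapped, which says little with 2 arrays each, and the share of all genes without overlap was not counted.

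These were 2 of the 6 tested members, where 3156 of 10916 genes passed (28.9%), 1559 higher (14.3%) and 1597 lower (14.6%). Fgf7 also passed, making 3 of 6, but at signal too dim to be told from background here, with 10.2 and 35.1 units in CD29H CD24P cells and 87.9 and 66.4 in CD29P CD24H cells (−1.03 ± 0.33, adjusted p = 0.0451 with limma). It reached the test only through the CD24L array, where it had 2847 units, and was not tested once that array was left out. It also lost its call without the first CD29H CD24P array (adjusted p = 0.328), as did Fgfr2 without the second one (0.0848).

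The other probe sets of Fgf1 differed by 0.73 ± 0.26 and −0.52 ± 0.34 and did not pass (adjusted p = 0.0733 and 0.312 with limma when tested by themselves), so the probe sets disagreed in sign. For Fgfr2, 1420847_a_at had the sign of the brightest probe set but did not pass (−0.56 ± 0.28, adjusted p = 0.189 with limma). The third Fgfr2 probe set, 1443211_at, differed by 0.07 ± 0.46 (adjusted p = 0.933). An Fgfr4 probe set that does not stand for the gene, 1418596_at, had 154 and 133 units in CD29H CD24P cells, against 40.3 and 6.36 in CD29P CD24H cells (1.73 ± 0.38, adjusted p = 0.0109), while 1427846_x_at gave −0.07 ± 0.32 (adjusted p = 0.89). Fgfr1 had 1025 and 1561 units in CD29H CD24P cells and 403 and 945 in CD29P CD24H cells (0.99 ± 0.39, adjusted p = 0.0876), and without the second CD29P CD24H array it passed (1.58, adjusted p = 7.14e-09). Fgfr3 differed by −0.30 ± 0.26 (adjusted p = 0.417).

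**Figure D4:**
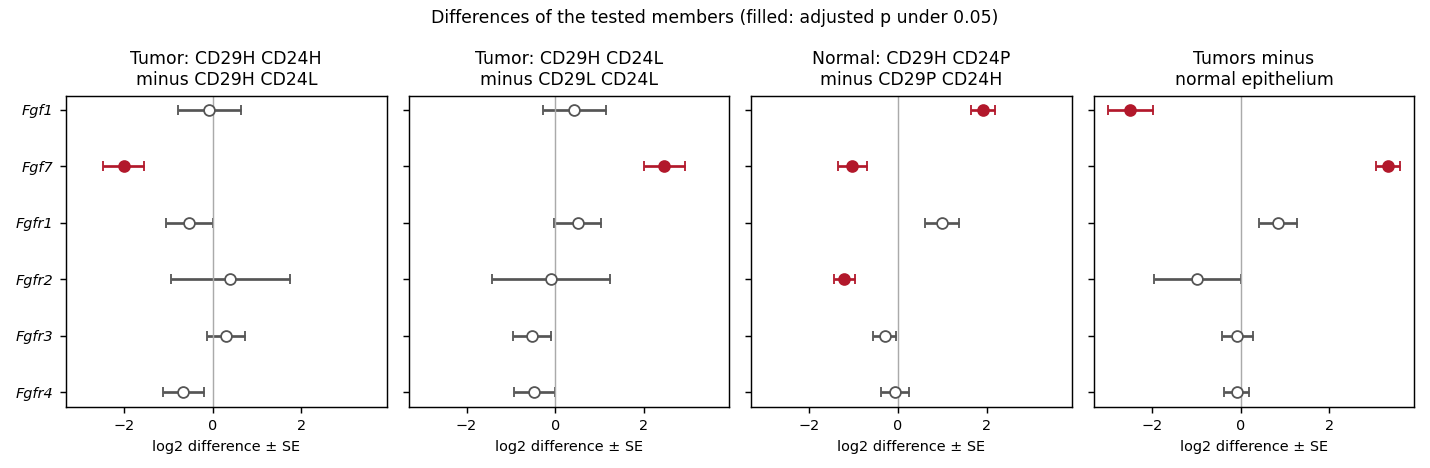
Differences of the 6 tested members on the log2(signal + 32) scale with standard errors, in 4 comparisons; filled points passed at an adjusted p under 0.05. Fgf7 is filled in all 4 panels, in the normal panel at only 10.2 to 87.9 units and tested there only through the CD24L array, and Fgf1 is filled in the 2 panels on the right, in opposite directions.

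Genes that act beside the receptors also differed between the normal gates, where 28.9% of all genes did (14.3% higher and 14.6% lower). Of 17 co-receptors and binding proteins 13 were tested, and 9 were higher and 0 lower in CD29H CD24P cells (median 1.73, against −0.02 over all genes). Gpc6, a heparan sulfate glypican, rose by 3.93 ± 0.25 and Flrt2, a membrane protein of a family that binds FGF receptors, by 2.86 ± 0.28 (adjusted p = 5.33e-06 and 6.14e-05 with limma). Among 12 tested heparan sulfate enzymes 6 were higher and 1 lower. Hs6st2, a 6-O-sulfotransferase, rose by 5.28 ± 0.30 (adjusted p = 2.76e-06), with 2619 to 2901 units in CD29H CD24P cells and 24.0 to 59.3 in CD29P CD24H cells. The 2 sulfatases that remove 6-O-sulfate went opposite ways: Sulf1 rose by 2.74 ± 0.28 and Sulf2 fell by 2.14 ± 0.28 (adjusted p = 7.34e-05 and 0.000409).

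Of 13 tested feedback inhibitors and targets 6 were higher and 1 lower. Etv5, an ETS factor induced by FGF signalling, had 1099 to 1165 units in CD29H CD24P cells and 130.7 to 173.1 in CD29P CD24H cells (2.67 ± 0.26, adjusted p = 6.25e-05 with limma). Spred1, an inhibitor of RAS activation, had 7790 to 9317 units in CD29H CD24P cells and 2335 to 2354 in CD29P CD24H cells (1.85 ± 0.22, adjusted p = 0.000206). Other pathways also act on these genes. Of 10 tested signal transducers 1 passed, Plcg1, which encodes phospholipase C gamma 1 (2.12 ± 0.26, adjusted p = 0.000269). Fgf13, a non-secreted member of the FGF family, was the 1 tested gene of 18 further ligands, with 44.2 to 75.2 units in CD29H CD24P cells and 1384 to 1654 in CD29P CD24H cells (−4.10 ± 0.28, adjusted p = 8.45e-06). The fibroblast genes summed to 47610 to 47810 units in CD29H CD24P cells and 10430 to 14790 in CD29P CD24H cells, with 7 of 16 higher and 1 lower; their part in these differences was not tested.

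Between the CD29H CD24L tumor cells and their neighbours 1 of these genes was called, beside 2.17% and 1.14% of all genes. Sulf1 was the 1 of 12 heparan sulfate enzymes that passed in either comparison involving CD29H CD24L cells, as Fgf7 did. It had 119.3 to 225.6 units in CD29H CD24H cells and 1871 to 2335 in CD29H CD24L cells (−3.41 ± 0.57, adjusted p = 0.00769 with limma), and CD29H CD24L cells were above CD29L CD24L cells by 2.79 ± 0.57 (adjusted p = 0.0359). None of the 14 tested co-receptors, 10 transducers or 13 feedback genes passed in either of them (with the tumor as a block, 2 and 3 co-receptors and 0 and 1 feedback genes, against 2 and 3 heparan sulfate enzymes). Among the 3 tumors 11 of 14 co-receptors, 7 of 12 heparan sulfate enzymes, 2 of 10 transducers and 7 of 13 feedback genes differed, beside 36.8% of all genes.

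For tumors against normal epithelium, each of the 3 tumors and each of the 2 normal preparations entered as a mean, and the CD24L array was left out. Fgf7 was higher in the tumors and Fgf1 lower, 2 of 6 tested members, where 784 of 10916 genes passed (7.18%), 466 higher (4.27%) and 318 lower (2.91%). Fgf7 had 237.3 to 3986 units on the 12 tumor arrays (median 599), against 10.23 to 87.92 on the 4 normal arrays. All 12 tumor arrays were above these 4, but the left-out CD24L array had 2847 units. The share of all genes that separate in this way was not counted. The difference was 3.32 ± 0.27 (adjusted p = 0.00473 with limma). Its size is uncertain, since the normal arrays lie at dim signal, and ran from 2.11 to 4.19 over the alternatives. The second Fgf7 probe set differed by 0.91 ± 0.28 and did not pass (adjusted p = 0.0951).

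Fgf1 had 58.64 to 525.7 units on the tumor arrays (median 194.4) and 494.9 to 2375 on the 4 normal arrays. Of the 12 tumor arrays 11 lay below all 4 (−2.48 ± 0.50, adjusted p = 0.033 with limma), and the left-out CD24L array had 239 units. Both other Fgf1 probe sets were lower on 12 of 12 tumor arrays than on those 4 and passed by themselves (−1.92 ± 0.42 and −1.60 ± 0.35, adjusted p = 0.0397 and 0.0396 with limma). For Fgf1 too, the share of all genes or probe sets that separate so was not counted. The receptors gave no call: Fgfr1 differed by 0.84 ± 0.43, Fgfr2 by −0.97 ± 0.98, Fgfr3 by −0.07 ± 0.34 and Fgfr4 by −0.09 ± 0.28 (adjusted p = 0.26 to 0.91). The interval of the Fgfr2 difference ran from −3.28 to 1.33.

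Both calls were lost with an RNA quality measure as a covariate or with a normal preparation left out, but these refits are weak. The actin 3′/5′ signal ratio was 14.4 to 99.3 on tumor arrays and 3.08 to 24.7 on normal arrays. With it as a covariate, a setting chosen after seeing the data, 0 genes passed. The differences were 3.22 for Fgf7 and −4.14 for Fgf1 (adjusted p = 0.682 and 0.802 with limma). With so few means and a ratio mostly higher in tumors, this fit cannot tell RNA quality from tumor against normal. Without normal preparation 1 or 2 neither gene passed, at differences of 3.22 and 3.42 for Fgf7 and −2.34 and −2.62 for Fgf1. These refits kept 1 normal mean and cannot decide whether the calls hold. Fgf1 also failed without the first or second CD29H CD24P array (adjusted p = 0.0847 and 0.11 with limma). The fibroblast genes were higher in the tumors as well, 13 of 16 (median 2.81, against 0.04 over all genes). Genes of other cell types passed too, with 6 of 10 tested macrophage and leukocyte genes higher (median 2.29), 2 of 4 endothelial genes higher (1.51) and the 1 tested adipocyte gene higher (4.35), while 0 of 2 T cell genes passed. Of 12 basal genes 3 were lower and 1 higher (median −1.09), and of 12 luminal genes 3 were lower and 2 higher (−0.18). The part of these cell types in the Fgf7 and Fgf1 differences was not tested.

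Beside the 7.18% of all genes called, the pathway lists gave few calls in tumors against normal epithelium, and their counts are not set apart from that share. Sulf2 was 1 of 12 tested heparan sulfate enzymes to pass (1.38 ± 0.31, adjusted p = 0.0464 with limma). Spry2, a Sprouty inhibitor of receptor tyrosine kinase signalling, was higher (1.08 ± 0.25, adjusted p = 0.0486) and Dusp5, a nuclear ERK phosphatase, lower (−1.42 ± 0.31, adjusted p = 0.0434), making 2 of 13 feedback genes. Spry2 had 2697 to 9756 units on tumor arrays and 2157 to 2812 on normal ones. Of 14 co-receptors and 10 transducers 0 passed.

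Tumor and normal cells of the nearest gates were also compared, on arrays already used above. CD29H CD24H tumor cells against normal CD29H CD24P cells called 2 of 5 tested members, Fgf7 higher (3.59 ± 0.49, adjusted p = 0.0122 with limma) and Fgf1 lower (−3.45 ± 0.65, adjusted p = 0.0332), beside 577 genes (5.29%), 2.42% higher and 2.87% lower. Of 12 basal genes 5 were lower and 0 higher there (median −4.09), and of 12 luminal genes 4 were higher and 1 lower (0.99); their part in the Fgf1 difference was not tested. Leaving out either normal array ended both calls, at differences of 3.26 and 3.92 for Fgf7 and −3.39 and −3.51 for Fgf1. These refits kept 1 normal array and cannot decide whether the calls hold. Leaving out the tumor 2 array ended the call of Fgf1 (adjusted p = 0.073 with limma). CD29L CD24H tumor cells against normal CD29P CD24H cells called 1 of 6, Fgf7 (1.97 ± 0.38, adjusted p = 0.0263), beside 600 genes (5.5%), 2.75% higher and 2.75% lower. It failed without either normal array, in refits that kept 1 normal array (differences 2.11 and 1.83). It also failed without the tumor 1 array (adjusted p = 0.0615 with limma). Fgf1 differed by −1.20 ± 0.65 there (adjusted p = 0.302 with limma). The actin 3′/5′ ratio was 23.2 to 72.5 in CD29H CD24H tumor cells and 3.08 and 7.09 in normal CD29H CD24P cells. It was 49.6 to 58.7 in CD29L CD24H tumor cells and 6.33 and 24.7 in normal CD29P CD24H cells. The part of RNA quality in these calls was not tested.

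In order of group means, Fgf7 stood at 11.34 in tumor CD29H CD24L cells, 9.32 in CD29H CD24H, 8.88 in CD29L CD24L and 8.73 in CD29L CD24H cells, and at 6.76 in normal CD29P CD24H and 5.73 in normal CD29H CD24P cells, all on the log2 scale. These normal groups lie at signal not told from background here, so their order is not read. The single normal CD24L array stood at 11.49, above all of these means. The neighbours from 9.32 to 8.73 did not differ by their tests (CD29H CD24H minus CD29L CD24L 0.44 ± 0.46, adjusted p = 0.935 with limma; CD29L CD24H minus CD29L CD24L −0.15 ± 0.46, adjusted p = 1). For Fgfr2 the tumor group means, 10.98 to 11.47, spanned less than the SD within any of those groups (1.79 to 2.35). That SD includes the spread between tumors.

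Whether the gate difference was the same in tumors and normal epithelium was tested as the CD29H CD24H minus CD29L CD24H tumor difference less that of CD29H CD24P minus CD29P CD24H normal cells. It called 0 of 6 tested members, beside 266 genes (2.44%), 0.77% higher and 1.67% lower. Fgf1 gave −2.25 ± 1.03, Fgf7 1.62 ± 0.68, Fgfr2 1.70 ± 1.94 and Fgfr4 −1.84 ± 0.68 (adjusted p = 0.367, 0.303, 0.818 and 0.218 with limma).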

How the data were processed

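Sorted-cell RNA went through column purification and 2 rounds of T7 amplification, per the labels' protocols. The authors deposited a linear intensity for each probe set, computed with GCOS per the submitters' processing notes, with no version given; each array had a trimmed mean (2% at both ends) of 500. The design text names reference RNA for normalization; the way it was used is not stated there. Detection calls were not used here. No genome or protein table was used.

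Of 45101 probe sets 34945 have 1 symbol in the platform annotation, and 18193 genes were represented by the probe set with the highest mean. Values were taken as log2(value + 32), without further normalization. Linear models with moderated variances following the mean signal (limma 3.58.1, R 4.3.3) were fitted on 12 tumor arrays, on 5 normal arrays, or on tumor and normal means, with Benjamini-Hochberg adjustment over 10916 genes. The normal fit kept the CD24L array as its own mean. The procedure was tested on simulated data. Figures were drawn with matplotlib.

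The 8 members, the pathway and marker lists were chosen with earlier results of these data known, and the alternatives, tests and naming rule with them. The rule named all 8 members, up to 4 passing genes of each pathway list per comparison, and the 3 genes most correlated with each member. Keratins were named after their values were seen. Some genes under the rule are left unprinted.

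A tumor number pairs arrays, since it names 1 tumor. Residuals after group means had r of 0.389 to 0.728 for 18 pairs within a tumor and −0.669 to −0.0526 for 48 pairs between tumors. Taking out group means by itself lowers the values between tumors. Values with the tumor as a block are given where they change a call or a count. The highest correlation between 2 arrays was 0.98, so no array was a duplicate by this measure. Alternatives were other offsets, normalizations, filters, probe-set rules, blocks and left-out arrays; the actin covariate in tumors against normal epithelium and the normal fit without the CD24L array were added after seeing the data.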

Additional observations from a re-analysis of the deposited data

Results flagged for a closer look

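Arrays outside the comparisons carried FGF signal above the 4 normal epithelial arrays. On the single normal CD24L array Fgf7 had 2847 units, against at most 87.9 on those arrays, Fgfr1 2768 units, against at most 1561, and Fgfr4 176 units, against at most 139. Reference RNA, a commercial pool, had 2425 units of Fgf7, against the same 87.9. Each of these rests on 1 array.

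The gate effect differed between tumors and normal epithelium for 3 genes of the pathway lists, by the test of the difference itself with limma, beside 2.44% of all genes. These were the 1 tested further FGF ligand and 2 of 12 heparan sulfate enzymes, with 0 of 14 co-receptors, 0 of 10 transducers and 0 of 13 feedback genes. Fgf13 gave 5.36 ± 1.05 (adjusted p = 0.0122): CD29H CD24H minus CD29L CD24H tumor cells was 0.92, 0.74 and 2.12 in tumors 1, 2 and 7, and CD29H CD24P minus CD29P CD24H normal cells −3.97 and −4.22. Hs6st2 gave −4.78 ± 1.13 (adjusted p = 0.0366), with 0.60, −0.18 and 1.10 in the tumors and 5.71 and 4.86 in normal cells. Ext1, a heparan sulfate polymerase, gave −2.33 ± 0.41 (adjusted p = 0.00759), with 0.47, −0.06 and −0.14 in the tumors and 2.31 and 2.53 in normal cells.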

How the results depend on the processing

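Of 2049 values of single FGF genes under the alternatives and left-out arrays, 1859 kept their direction and side of the threshold, 70 lost a call and 2 gained one. A further 118 changed sign without passing in either setting, and no called value reversed. Fgfr2 and Fgf1 differed among the tumors in every alternative that tested them (10 and 9) and without any 1 array. Fgf1 between the normal gates did likewise. The count of members called fell to 0 in CD29H CD24H against CD29H CD24L cells with an offset of 1, with quantile normalization, with no filter and with the mean of a gene's probe sets. That mean also gave 0 in CD29H CD24L against CD29L CD24L cells and among the 4 populations, 2 among the tumors, 1 between the normal gates and 1 in CD29H CD24H tumor against normal CD29H CD24P cells. The last gave 1 with no filter and with a 60% filter, and CD29L CD24H tumor against normal CD29P CD24H cells gave 0 with both. Tumors against normal epithelium gave 1 with a 60% filter, 1 with the CD24 high populations alone and 0 with the actin covariate. With the 60% filter the members missing from these counts were left untested by the filter and did not lose a call in a test. The causes of the other changes were not tested. With arrays left out, members called ranged over 0 to 1 in CD29H CD24H against CD29H CD24L cells, in CD29H CD24L against CD29L CD24L cells, among the populations and in CD29L CD24H tumor against normal CD29P CD24H cells; 3 to 4 among the tumors; 2 to 4 between the normal gates; and 0 to 2 in tumors, and in CD29H CD24H tumor cells, against normal cells. A group left with 1 array was assumed to vary like the others.

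Gene counts ranged over the alternatives from 0 to 122 in CD29H CD24H cells against the other 3 populations, 136 to 538 against CD29H CD24L cells, 0 to 1 against CD29L CD24H cells and 0 to 196 against CD29L CD24L cells. The range was 69 to 483 in CD29H CD24L and 0 to 33 in CD29L CD24H against CD29L CD24L cells, 0 to 211 for the interaction, 105 to 590 among the populations and 3043 to 6525 among the tumors. It was 2089 to 4860 between the normal gates, 0 to 1410 in tumors against normal epithelium, 384 to 1027 and 318 to 872 in the gate-wise tumor comparisons and 159 to 436 for the gate difference. The replicate block by tumor changed no member's call (Fgf7 adjusted p = 0.00722 and 0.00247 in its 2 comparisons, 0.00242 among the populations). Normal preparations share only a number. Their 2 pairs gave r = 0.0543, which is a single value, since residuals of 2 arrays per gate mirror each other. With the preparation number as a replicate block Fgfr1 passed between the normal gates (adjusted p = 0.0195 with limma), making 4 members. Signal near background limits Fgf2, Fgf10, the normal Fgf7 values and the Fgfr4 values of CD29H CD24H tumor cells.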
